A study of Mus musculus with 9 samples.

Results

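Heat shock proteins and chaperonins fold new proteins and refold damaged ones, and 33 of their genes were followed here across 9 RNA sequencing libraries of mouse knee chondrocytes, the cells of cartilage. The 33 genes were chosen by symbol: heat shock factor 1 (HSF1), the HSP70, HSP110, HSP40, HSP90 and small heat shock protein families with their helper proteins, the 8 subunits of the TRiC/CCT chaperonin, and 4 prefoldin subunits. Earlier results of these data were known when they were chosen. All 33 were among the 56748 genes of the deposited count table, and all 33 had enough counts to be tested, as did 15502 genes in all. Hspd1 and Hspe1, which were grouped with the cytosolic genes, encode chaperones of the mitochondrial matrix.

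The chondrocytes came from wild-type mice and were released from knee cartilage with collagenase D and cultured. The labels put 3 libraries in each of 3 groups: cells given IL-1β (interleukin-1β, an inflammatory cytokine) together with recombinant SFRP5 (secreted frizzled-related protein 5, which binds Wnt ligands), cells given IL-1β alone, and control cells. No group received SFRP5 alone, and the labels give no dose, time, animal or culture. The p-values therefore describe only how far these 9 libraries differ among themselves, and that spread may be technical. The 8 chondrocyte markers checked were present in every group, with summed levels of 27000 to 28300 CPM (counts scaled to library size and corrected for library composition) with IL-1β and SFRP5, 21300 to 22500 CPM with IL-1β and 106000 to 108000 CPM in control cells. Col2a1 was the largest of these, averaging 20770 CPM with IL-1β and SFRP5, 15410 CPM with IL-1β and 74500 CPM in control cells. Each of the 8 was lower with IL-1β than in control cells, down to Matn3 at 3.74 CPM, against 111.3 CPM in control cells. The 5 macrophage markers summed to 13.7 to 16.8 CPM with IL-1β and SFRP5, 17.3 to 17.8 CPM with IL-1β and 10.8 to 11.5 CPM in control cells. The 3 endothelial markers summed to at most 1.3 CPM with IL-1β and SFRP5, 2.66 CPM with IL-1β and 0.305 CPM in control cells. The 3 muscle markers summed to at most 2.56 CPM with IL-1β and SFRP5, 1.48 CPM with IL-1β and 3.84 CPM in control cells. The 3 markers listed for synovial fibroblasts, Pdpn, Thy1 and Prg4, summed to 1070 to 1100 CPM with IL-1β and SFRP5, 833 to 888 CPM with IL-1β and 116 to 121 CPM in control cells. Prg4 was the largest of these, averaging 844.5 CPM with IL-1β and SFRP5, 475.4 CPM with IL-1β and 65.41 CPM in control cells. Pdpn averaged 230.8 CPM with IL-1β and SFRP5, 383.5 CPM with IL-1β and 34.29 CPM in control cells. Within that list Thy1 went the other way, with 4.388 to 4.683 CPM with IL-1β and SFRP5, 2.789 to 4.36 CPM with IL-1β and 17.21 to 20.23 CPM in control cells. The part of these marker levels in the results was not tested. In bulk RNA, fewer cells of a type and less RNA per cell cannot be told apart. Total counts per library were 15795985 to 20688963, so that 3 counts in 1 library equalled 0.135 to 0.195 CPM.

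HSF1 is the transcription factor that switches on heat shock genes when unfolded proteins accumulate. It binds heat shock elements, repeats of the bases GAA in alternating orientation. HSP40 proteins deliver clients to HSP70, HSP110 proteins exchange its nucleotide, and HSP90 takes over signalling proteins such as kinases and steroid receptors, often through the adaptor encoded by Stip1. The ring-shaped TRiC/CCT chaperonin folds actin and tubulin, which prefoldin brings to it. Chondrocytes secrete large amounts of matrix protein, which folds in the endoplasmic reticulum with a separate set of chaperones.

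The DNA upstream of Hspa1a and Hspa1b, the stress-inducible HSP70 genes, is shown because these genes changed most and are near-identical copies. Sequences are from RefSeq on GRCm38.p6, written 5′ to 3′ on the strand of the gene, and each runs from 250 bases before the start site to the last base before it. The Hspa1a stretch lies at chr17:34972157-34972406 and Hspa1b at chr17:34959239-34959488, both on the minus strand. Capitals mark a heat shock element of 2 units (GAANNTTC or TTCNNGAA, each its own reverse complement, so that both strands are covered).
Hspa1a: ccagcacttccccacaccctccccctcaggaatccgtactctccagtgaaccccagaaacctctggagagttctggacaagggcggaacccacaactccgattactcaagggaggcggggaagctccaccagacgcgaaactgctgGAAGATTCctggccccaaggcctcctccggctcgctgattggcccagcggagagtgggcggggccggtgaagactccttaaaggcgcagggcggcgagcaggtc
Hspa1b: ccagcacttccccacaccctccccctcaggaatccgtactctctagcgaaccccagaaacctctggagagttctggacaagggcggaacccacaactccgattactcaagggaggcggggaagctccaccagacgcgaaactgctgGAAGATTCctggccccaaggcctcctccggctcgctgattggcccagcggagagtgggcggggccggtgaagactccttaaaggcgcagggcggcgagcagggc
Counted from 1 at the 5′ end, the pair differed at 3 of 250 bases, C44T, T47C and T249G, with the Hspa1a base first.

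Windows of 30 bases show the members with a heat shock element of 3 units (GAA, TTC and GAA, or TTC, GAA and TTC, with NN between units, each the reverse complement of the other) in a promoter, taken as 250 bases before to 50 bases after a start site. Capitals mark the matched bases, with overlapping matches joined. Hspe1 and Hspd1 are transcribed in opposite directions, and the Hspe1 match is also the Hspd1 match, on the other strand. The Hsph1 match lies after a start site of the gene. The windows lie at chr5:29735843-29735872 on the plus strand for Dnajb6, chr1:55088053-55088082 on the plus strand for Hspe1, chr5:149636280-149636309 on the minus strand for Hsph1 and chr9:18292259-18292288 on the plus strand for Chordc1.
Dnajb6: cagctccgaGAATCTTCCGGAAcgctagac
Hspe1: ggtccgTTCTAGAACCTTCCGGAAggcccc
Hsph1: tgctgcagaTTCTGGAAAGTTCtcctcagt
Chordc1: accgGAACGTTCGGGAAAATTCCTGAAgca
RefSeq promoters were matched for 27 members, and 5 of these (Dnajb6, Hspd1, Hspe1, Hsph1 and Chordc1, or 18.5%) held the 3-unit element in at least 1 promoter, against 0.662% of the 27025 genes with a promoter entry. The 2-unit element, which every 3-unit match contains, was found in 15 of 27 members, or 55.6%, against 17% of all genes. The 6 members without an entry were Hsf1, Hspa8, Hsp90aa1, Hsp90ab1, Cct4 and Pfdn1. A match of letters describes the sequence and does not show binding.

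IL-1β raised most of these chaperone genes, with the stress-inducible HSP70 genes far ahead of the rest, while the small heat shock proteins, Bag3 and the mitochondrial chaperonin pair fell. Of 33 members 22 rose, 7 fell and 4 were not called against control cells (edgeR's quasi-likelihood test, adjusted p under 0.05), where 38.5% of all tested genes rose and 40.4% fell. In either direction 87.9% of the members were called, against 78.9% of all genes. The median log2 change of the members was 0.41, against −0.0325 over all genes tested. Changes of at least 1.5-fold were called for 12 members upward and 3 downward, against 26.5% and 29.8% of all genes and 56.3% in either direction. Libraries of the IL-1β and control groups did not overlap for 31 of 33 members, against 80% of all genes, with 23 higher (38.8% of all genes) and 8 lower (41.1%). The members had a median of 120 CPM over all libraries, against 15.5 CPM for all tested genes, and smaller changes can be called at higher counts. With library size alone as the scaling, 37.7% of all calls were upward in place of 48.8%, 17 members rose and 10 fell, and the median of all genes moved to −0.277. With upper-quartile factors that median was −0.18, so changes of members near or below 0.3 on the log2 scale depend on the scaling.

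**Figure D1:**
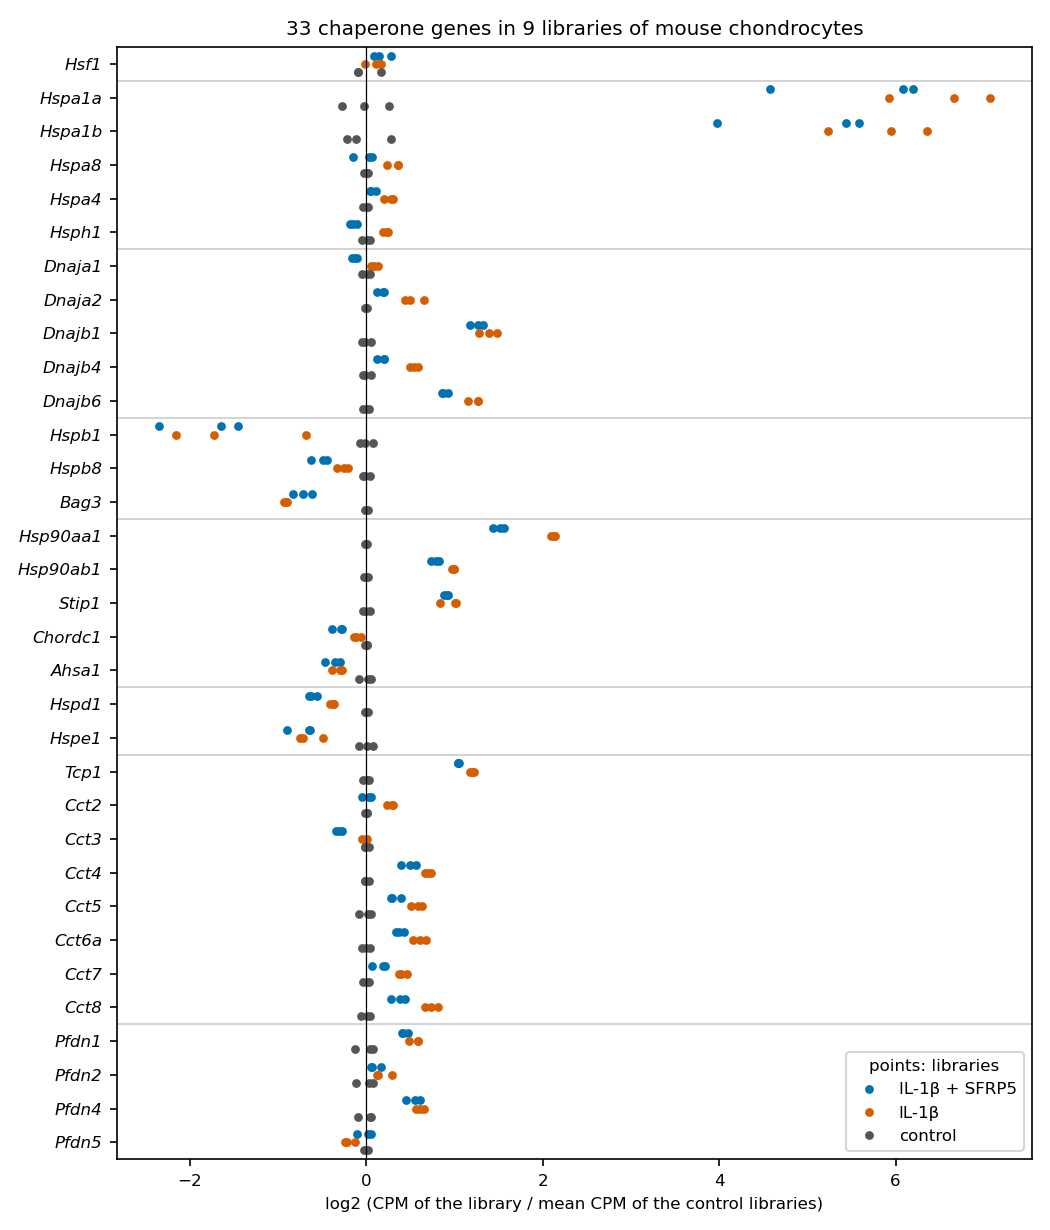
Each point is 1 library, plotted as the log2 ratio of its CPM to the mean CPM of the control libraries, for 33 genes ordered by role with grey lines between roles (3 libraries a group). Hspa1a and Hspa1b stand far to the right in all 6 libraries with IL-1β, and Hspb1, Hspb8, Bag3, Hspd1 and Hspe1 stand left of the control libraries.

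Hsf1 itself (ENSMUSG00000022556), the transcription factor, was at 24.97, 27.19 and 28.29 CPM with IL-1β, against 28.24, 23.66 and 23.66 CPM in control cells. The groups overlapped, and the log2 difference of 0.09 ± 0.08 (SE) was not called (adjusted p = 0.298). Of 4 tested heat shock factors and regulators on a list of related genes, Hikeshi, which carries HSP70 into the nucleus, rose by 0.42 and Hsf2 by 0.21, and Hsbp1, a binding partner of HSF1, fell by 0.27 on the log2 scale. The related genes were not recomputed under other scalings, so directions of changes this small are tied to the scaling used.

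All 5 genes chosen from the HSP70 and HSP110 families rose with IL-1β, where 38.5% of all tested genes rose. Of 6 other tested genes of these families 2 rose and 4 fell. Hsph1 rose only by 0.23 on the log2 scale and was at −0.02 when scaled by library size alone. Hspa1a (ENSMUSG00000091971) had 306, 229.9 and 138.3 CPM in the IL-1β libraries, against 2.223, 2.709 and 1.879 CPM in control libraries. Every IL-1β library thus stood above every control library, while IL-1β library 1 was 2.21-fold above library 3. The change was 97.9-fold, or 6.61 ± 0.39 on the log2 scale (adjusted p = 3.64e-14). Hspa1b (ENSMUSG00000090877) had 518.1, 390.3 and 238.1 CPM with IL-1β, against 5.860, 5.463 and 7.718 CPM in control cells, a 60.4-fold change (adjusted p = 2.3e-14). Its IL-1β libraries stood in the same order as those of Hspa1a.

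The 2 genes cannot be fully separated in these counts. Of all 150-base windows of Hspa1a transcripts in GENCODE M21, 39.7% also occur in another gene, mainly Hspa1b, and for Hspa1b the share was 40.5%. With the counts of both genes summed, an alternative added after seeing the data, the change was 70.5-fold (adjusted p = 5.12e-15).

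The constitutive members of these families changed little. Hspa8 (ENSMUSG00000015656), the HSP70 made in unstressed cells, was at 1194 ± 57.1 CPM with IL-1β and 955.5 ± 17.0 CPM in control cells (SD, n = 3 each), a 1.25-fold rise (adjusted p = 3.97e-07). Hspa4, an HSP110 relative, rose 1.2-fold (adjusted p = 2.35e-06). Both lost their call when scaled by library size alone. Of the 150-base windows of Hspa8, 22.8% occur in any of 4 other genes. The main one, Gm15459, holds 20% and had 174 to 350 counts, against 14629 to 21366 for Hspa8. Per kilobase of gene length, Hspa8 took 51.0 ± 6.18% of the summed level of these 5 genes with IL-1β and 80.2 ± 0.607% in control cells, while Hspa1b took 24.2 ± 5.31% with IL-1β and 0.819 ± 0.165% in control cells (SD, n = 3 each).

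**Figure D2:**
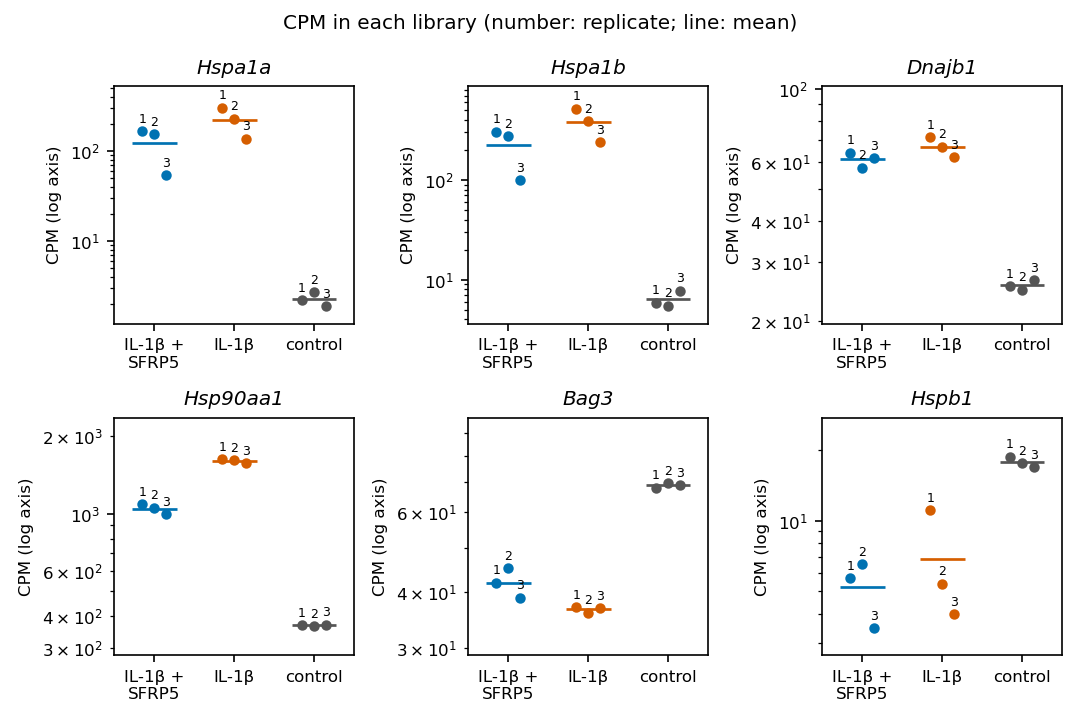
CPM of 6 chaperone genes on log axes, with 1 point per library numbered by replicate and a line at the mean of 3 libraries. Hspa1a and Hspa1b differ 3.09-fold and 3.05-fold between libraries with IL-1β and SFRP5 and 2.21-fold and 2.18-fold between libraries with IL-1β, whereas Hsp90aa1 was tight in all groups, at 992.4 to 1086 CPM with IL-1β and SFRP5 and 1570 to 1625 CPM with IL-1β.

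Among the HSP40 cochaperones chosen, 4 of 5 rose with IL-1β, where 38.5% of all tested genes rose. Dnajb1 (ENSMUSG00000005483), the stress-inducible partner of HSP70, had 71.63, 66.91 and 62.11 CPM with IL-1β, against 25.41, 24.83 and 26.51 CPM in control cells. The groups were clearly apart, and the gene rose 2.61-fold (adjusted p = 8.67e-17). Dnajb6, which keeps aggregation-prone proteins in solution, rose 2.35-fold to 147.9 ± 6.76 CPM, against 63.07 ± 1.47 CPM in control cells (SD, n = 3 each, adjusted p = 3.8e-18 in edgeR's test). Dnajb4 and Dnaja2 rose 1.46-fold and 1.45-fold. Dnaja1 was at 102.8 ± 2.44 CPM with IL-1β and 96.38 ± 2.89 CPM in control cells and was not called (adjusted p = 0.0599). Of 19 alternative fits 10 called it. Among these it was called upward without IL-1β library 1 (0.14, adjusted p = 0.0207) and with DESeq2 (adjusted p = 0.0334), but downward, at −0.15, when scaled by library size alone.

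The small heat shock proteins and Bag3 went the other way. Hspb1 (ENSMUSG00000004951), an ATP-independent holdase that binds unfolding proteins, had 11.12, 5.389 and 3.985 CPM with IL-1β, against 18.79, 17.65 and 16.96 CPM in control cells. All 3 IL-1β libraries were lower, and they spread 2.79-fold among themselves. The gene fell by 1.39 ± 0.21 on the log2 scale (adjusted p = 1.52e-06). A copy, Hsp25-ps1, shares 39.1% of the 150-base windows of Hspb1 and had at most 4 counts in a library. Bag3 (ENSMUSG00000030847), which links HSP70 to small heat shock proteins and autophagy, had 37.00, 35.97 and 36.78 CPM with IL-1β, against 68.04, 69.76 and 68.91 CPM in control cells. These groups were tight and far apart, and Bag3 was 1.88-fold lower (adjusted p = 6.44e-14). Hspb8, the small heat shock protein that works with BAG3, was 1.2-fold lower (adjusted p = 0.000607).

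The HSP90 genes rose, and their helpers divided. Hsp90aa1 (ENSMUSG00000021270), the inducible cytosolic HSP90, had 1625, 1610 and 1570 CPM with IL-1β, against 368.3, 364.8 and 370.6 CPM in control cells. It rose 4.35-fold, by 2.12 ± 0.04 on the log2 scale (adjusted p = 1.49e-25), with little spread within either group. Of its 150-base windows, 28.5% occur in any of 3 other genes. The main one, Gm12346, holds 23.6% and had 60 to 301 counts, against 7291 to 27587 for Hsp90aa1. Hsp90ab1 (ENSMUSG00000023944), the constitutive form, rose 1.98-fold to 2322 ± 29.1 CPM, against 1171 ± 18.8 CPM in control cells. Per kilobase Hsp90ab1 was the highest of the 33 members in all 3 groups. By the same measure Hsp90aa1 stood above Hspa8 in both groups given IL-1β and below it in control cells, and the libraries did not overlap. Such ranks between genes depend on the gene lengths used. In CPM, Hsp90aa1 and Hspa8 libraries overlapped in the group given IL-1β and SFRP5, but not with IL-1β alone or in control cells. Stip1, the adaptor between HSP70 and HSP90, rose 1.94-fold (adjusted p = 9.83e-16). Ahsa1, an activator of the HSP90 ATPase, had 44.84, 42.33 and 45.54 CPM with IL-1β, against 55.97, 52.24 and 57.48 CPM in control cells, and was 1.25-fold lower (adjusted p = 2.02e-05). Chordc1, another HSP90 cochaperone, was at 51.71 ± 1.56 CPM with IL-1β and 55.54 ± 0.425 CPM in control cells and was not called (adjusted p = 0.0688 in edgeR's test), although it was called lower with upper-quartile factors or library size alone.

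The mitochondrial pair fell together. Hspe1 (ENSMUSG00000073676), which encodes HSP10, the lid of the HSP60 chamber, had 65.80, 54.92 and 55.85 CPM with IL-1β, against 86.94, 92.51 and 97.04 CPM in control cells, and was 1.57-fold lower (adjusted p = 2.48e-09). Hspd1, which encodes HSP60, was 1.3-fold lower (adjusted p = 3.45e-09). Its copy Hspd1-ps3 shares 16.1% of its 150-base windows and had 44 to 410 counts, against 2349 to 5208 for Hspd1. The table's gene bounds of this divergent pair overlap by 112 bases. The library kit keeps strand, but no source here says whether reads were counted by strand. Of 9 other mitochondrial chaperones and proteases 6 rose and 2 fell, so that 88.9% were called, against 78.9% of all genes. Grpel2, a nucleotide exchange factor of mitochondrial HSP70, rose by 1.37, the protease Lonp1 by 1.01 and Hspa9, the mitochondrial HSP70, by 0.99 on the log2 scale.

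Of the 8 TRiC/CCT subunits 7 rose with IL-1β, where 38.5% of all tested genes rose. Tcp1 (ENSMUSG00000068039), the alpha subunit, had 482.1, 496.8 and 487.5 CPM with IL-1β, against 207.2, 213.6 and 217.8 CPM in control cells, and rose 2.30-fold (adjusted p = 2.93e-20). The other 6 that rose did so by less. Cct8 rose 1.67-fold, Cct4 1.62-fold, Cct6a 1.52-fold, Cct5 1.49-fold, Cct7 1.33-fold and Cct2 1.21-fold, the last of which lost its call when scaled by library size alone. Cct3, the gamma subunit, was at 139.8 ± 3.10 CPM with IL-1β and 141.3 ± 2.28 CPM in control cells (SD, n = 3 each) and was not called (adjusted p = 0.755 in edgeR's test). It was called lower with upper-quartile factors or library size alone.

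The chaperonin ring holds equal copies of its subunits, but their transcripts did not change in step. Per kilobase, Tcp1 took 17.2 ± 0.0978% of the summed level of the 8 subunits with IL-1β and 11.4 ± 0.0697% in control cells. Cct2 took 19.7 ± 0.653% with IL-1β and 24.7 ± 0.598% in control cells, and Cct3 took 3.89 ± 0.156% with IL-1β and 5.96 ± 0.0870% in control cells (SD, n = 3 each). Gene lengths are those of the table, which sets low the levels of genes with long alternative transcripts, so shares are best compared between groups.

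Of the 4 prefoldin members 3 rose with IL-1β, where 38.5% of all tested genes rose. Pfdn2 rose only by 0.19 on the log2 scale (adjusted p = 0.0284 in edgeR's test) and was at −0.06 when scaled by library size alone. The Pfdn2 call was also lost without control library 2 (adjusted p = 0.169), without IL-1β library 1 (adjusted p = 0.0945) and with upper-quartile factors (adjusted p = 0.647). Pfdn4 had 21.51, 23.01 and 22.32 CPM with IL-1β, against 15, 13.64 and 15.18 CPM in control cells, and rose 1.53-fold (adjusted p = 2.36e-07). Pfdn5 had 46.05, 42.33 and 43.09 CPM with IL-1β, against 49.30, 51.02 and 50.27 CPM in control cells, and was 1.15-fold lower (adjusted p = 0.00258). The other 2 subunits of the complex, which are not among the 33 genes, moved little. Pfdn6 fell by 0.23 and Vbp1 was at −0.04 on the log2 scale (adjusted p = 0.566).

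**Figure D3:**
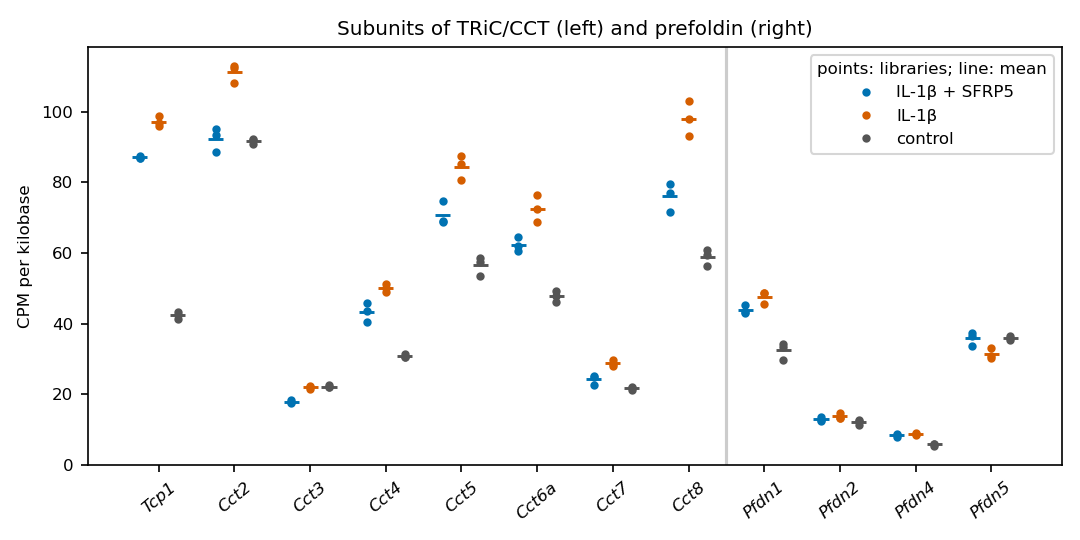
Levels of 8 TRiC/CCT and 4 prefoldin subunits in CPM per kilobase of gene length, with 1 point per library and a line at the mean of 3 libraries. For each TRiC/CCT subunit the libraries with SFRP5 lie below those with IL-1β alone, and Tcp1 had the largest rise of the subunits with IL-1β.

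Of 91 tested related genes, on 9 lists of further chaperones, cochaperones and clients, 38 rose and 40 fell with IL-1β, or 85.7%, against 78.9% of all genes. Over all tested genes 38.5% rose and 40.4% fell. Actin and tubulin genes, whose products fold on TRiC/CCT, moved both ways with IL-1β, with 7 of 18 actin, tubulin and tubulin cofactor genes higher and 11 lower. Tubb2b averaged 0.9445 CPM with IL-1β and 52.07 CPM in control cells, and Tubb2a 21.15 CPM with IL-1β and 393.0 CPM in control cells. Tubb6 rose by 1.87 on the log2 scale, and Actg1, a cytoplasmic actin, by 0.73. Of the other HSP40 genes 8 of 13 rose and 5 fell, with Dnajc5, a cochaperone of secretory vesicles, up by 2.22, Dnajc21, which acts in ribosome maturation, up by 2.06, and Dnajc9, a histone chaperone, down by 1.94. Of the other HSP70 and HSP110 genes 2 of 6 tested rose and 4 fell. Hspa4l, an HSP110, rose by 2.55, whereas Hspa2, an HSP70 best known from testis, fell by 1.16.

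For the lists that follow, 38.5% of all tested genes rose and 40.4% fell with IL-1β, or 78.9% in either direction. Of 3 tested small heat shock proteins outside the 33 genes 2 fell. Hspb6 fell by 3.27, Hspb2 had at most 4 counts in an IL-1β library against 20 to 41 in control libraries, and Cryab, which encodes αB-crystallin, was at −0.12 (adjusted p = 0.101). Of 10 BAG and HSP70 cochaperones 4 rose and 5 fell, with Bag2 up by 2.48 and Stub1, the ubiquitin ligase CHIP that marks HSP70 clients for breakdown, down by 0.81. Of 16 tested HSP90 cochaperones 6 rose and 5 fell, with Ptges3, which encodes p23, up by 0.96, and Fkbp4, which joins HSP90 to steroid receptors, down by 1.15. Of 12 TRiC and prefoldin relatives 3 rose and 5 fell, with Mkks, a chaperonin-like protein, up by 0.99 and Pdrg1, a prefoldin-like protein, down by 1.36.

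Adding SFRP5 to IL-1β lowered most of the 33 genes by a small amount. Of 33 members 22 fell, 2 rose and 9 were not called against IL-1β alone, where 15.7% of all tested genes fell and 15.6% rose. In either direction 72.7% of the members were called, against 31.3% of all genes. The members had a median of 120 CPM, against 15.5 CPM for all tested genes, and smaller changes can be called at higher counts. The median log2 change was −0.22 for the members and 0.0127 for all genes. All 11 members that were called and changed at least 1.2-fold were lower, where 9.62% of all genes were called lower and 11.5% higher at that size. At 1.5-fold or more, 3 members were called, Hspa1a, Hspa1b and Hsp90aa1, all lower, against 8.92% of all genes, of which 4.03% were lower and 4.89% higher. Libraries of the groups with and without SFRP5 did not overlap for 23 of 33 members, against 40.8% of all genes, with 21 lower (20.3% of all genes) and 2 higher (20.5%). Against a null of changes up to 1.2-fold (edgeR's glmTreat), 4 members were called lower, Hspa1a, Hsph1, Hsp90aa1 and Cct8. With library size alone as the scaling, 69.7% of all calls were upward in place of 49.8%, and 20 members were still called lower and 2 higher.

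Hsp90aa1 had the smallest adjusted p of the 33 genes with SFRP5. It had 1086, 1056 and 992.4 CPM with IL-1β and SFRP5, against 1625, 1610 and 1570 CPM with IL-1β alone. The groups did not overlap, and the gene was 1.53-fold lower, a log2 change of −0.62 ± 0.04 (adjusted p = 4.04e-13). Hsp90ab1 was 1.15-fold lower (adjusted p = 1.56e-05) and Chordc1 1.16-fold lower (adjusted p = 0.00223). Stip1, at 199.4 ± 3.34 CPM with IL-1β and SFRP5 and 206.8 ± 14.1 CPM with IL-1β alone (SD, n = 3 each), was not called (adjusted p = 0.433 in edgeR's test). Ahsa1 was not called either (adjusted p = 0.514).

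The inducible HSP70 genes were lower on average but not in every library. Hspa1a had 167.0, 154.2 and 53.99 CPM with IL-1β and SFRP5, against 306.0, 229.9 and 138.3 CPM with IL-1β alone. The groups overlapped, since libraries 1 and 2 with SFRP5 stood above IL-1β library 3, and library 3 was the lowest of each group. The change was −0.84 ± 0.24 on the log2 scale (adjusted p = 0.00803). Hspa1b had 305.0, 274.3 and 100.1 CPM with IL-1β and SFRP5, against 518.1, 390.3 and 238.1 CPM with IL-1β alone, a change of −0.75 ± 0.24 (adjusted p = 0.0165). Without IL-1β library 1 these changes were −0.55 (adjusted p = 0.0871) and −0.47 (adjusted p = 0.151), without SFRP5 library 3 they were −0.48 (0.0264) and −0.40 (0.065), and with DESeq2 the adjusted p was 0.202 and 0.25 and with robust dispersions 0.237 and 0.286, so the call for the pair rests on single libraries and on how the spread is estimated. Their summed counts gave −0.79 ± 0.24 (adjusted p = 0.0121).

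Tighter changes were found in the rest of the HSP70 system. Hsph1, an HSP110 nucleotide exchange factor, had 108.9, 102.9 and 105.9 CPM with IL-1β and SFRP5, against 138.1, 133.9 and 139.0 CPM with IL-1β alone. The groups were apart, and the change was −0.37 ± 0.04 (adjusted p = 3.05e-07). Hspa8 was 1.26-fold lower, at 948.1 ± 74.3 CPM with SFRP5 and 1194 ± 57.1 CPM with IL-1β alone, and Hspa4 was 1.14-fold lower. Dnajb4, an HSP40 of the DNAJB family, had 32.94, 34.67 and 34.81 CPM with IL-1β and SFRP5, against 45.26, 43.90 and 42.58 CPM with IL-1β alone, and was 1.29-fold lower (adjusted p = 3.28e-05). Dnaja2, Dnajb6 and Dnaja1 were lower by 1.28-fold, 1.27-fold and 1.17-fold. Dnajb1 was at 61.27 ± 3.24 CPM with IL-1β and SFRP5 and 66.88 ± 4.76 CPM with IL-1β alone, with overlapping groups, and was not called (adjusted p = 0.104 in edgeR's test), but was called lower without IL-1β library 3 (adjusted p = 0.0267).

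All 8 TRiC/CCT subunits fell with SFRP5, with log2 changes between −0.16 for Tcp1 and −0.37 for Cct8, and their groups did not overlap. Of all tested genes 15.7% were called lower, and 20.3% were lower with no overlap of libraries. Against a null of changes up to 1.2-fold (edgeR's glmTreat), Cct8 was the only subunit called. Cct8 (ENSMUSG00000025613), the theta subunit, had 237.6, 245.4 and 221.1 CPM with IL-1β and SFRP5, against 287.7, 302.5 and 318.3 CPM with IL-1β alone (adjusted p = 6.36e-07). Tcp1 was 1.12-fold lower (adjusted p = 0.00121), a call that was lost when scaled by library size alone. The summed level of the 8 subunits was 1783 ± 46.1 CPM with IL-1β and SFRP5, 2109 ± 37.4 CPM with IL-1β and 1371 ± 28.6 CPM in control cells. In prefoldin, Pfdn1, Pfdn2 and Pfdn4 were not called (adjusted p of 0.124, 0.41 and 0.603) and Pfdn5 rose; whether the change of prefoldin differs from that of TRiC/CCT was not tested.

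**Figure D4:**
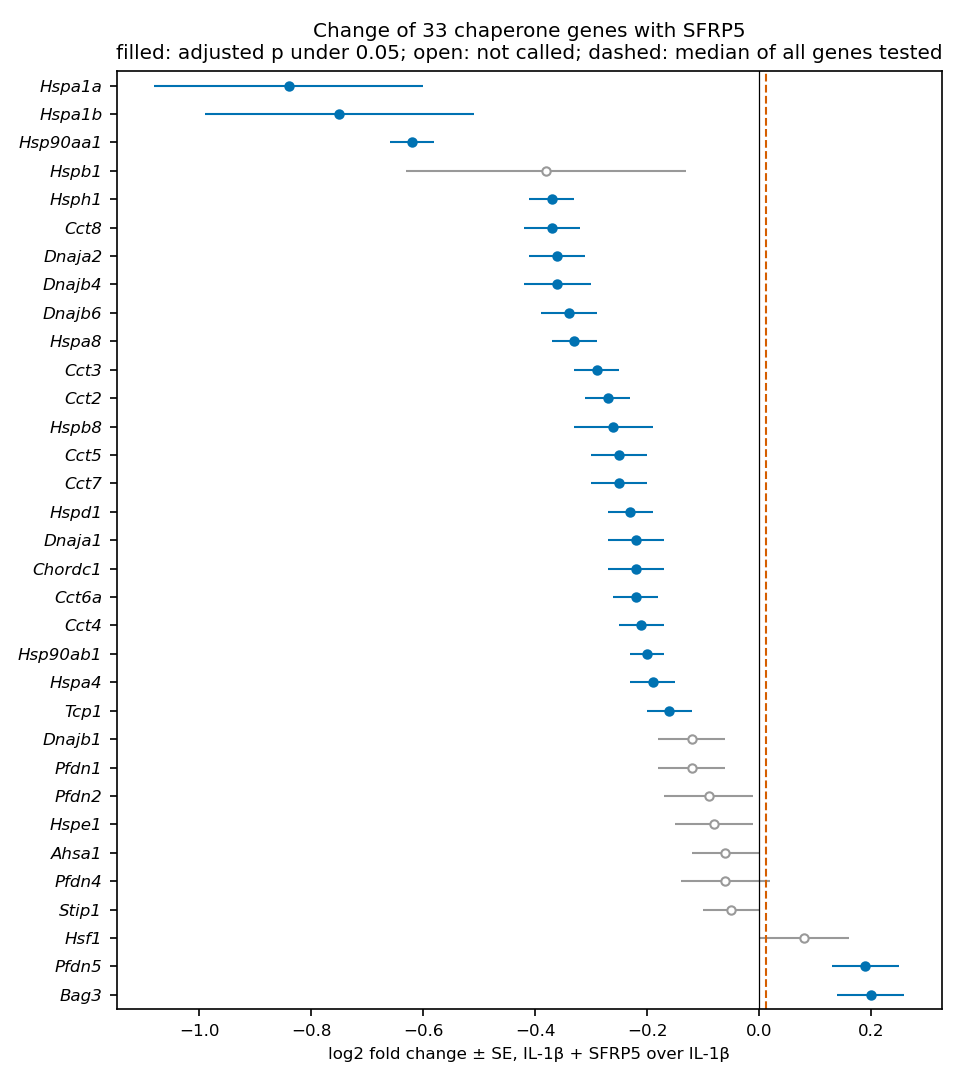
Log2 fold change with its SE for 33 genes, IL-1β with SFRP5 over IL-1β alone (3 libraries each), with filled points at an adjusted p under 0.05 in edgeR's test and a dashed line at the median of all tested genes. Most points lie left of 0, with Hspa1a, Hspa1b and Hsp90aa1 furthest, and Pfdn5 and Bag3 are the called genes on the right.

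The 2 members that rose with SFRP5 were Bag3 and Pfdn5. Bag3 had 41.91, 45.08 and 38.88 CPM with IL-1β and SFRP5, against 37.00, 35.97 and 36.78 CPM with IL-1β alone, 1.15-fold higher (adjusted p = 0.0117). Pfdn5 had 50.99, 52.23 and 46.85 CPM with IL-1β and SFRP5, against 46.05, 42.33 and 43.09 CPM with IL-1β alone, 1.14-fold higher (adjusted p = 0.0114). For both genes the groups did not overlap, but both calls were lost without SFRP5 library 2 (adjusted p = 0.0777 for Bag3 and 0.0533 for Pfdn5), and that of Pfdn5 also without SFRP5 library 1 (0.0526) or IL-1β library 2 (0.0567). Hspb8 and Hspd1 were lower by 1.19-fold and 1.17-fold. Hspb1, at 5.671, 6.505 and 3.481 CPM with IL-1β and SFRP5 and 11.12, 5.389 and 3.985 CPM with IL-1β alone, was not called (adjusted p = 0.264 in edgeR's test). Its log2 change of −0.38 turned to 0.16 without IL-1β library 1, and without IL-1β library 3 it was −0.66 and called (adjusted p = 0.026), as it was with no low-count filter (adjusted p = 0.0481). Hspe1 (adjusted p = 0.454) and Hsf1 (adjusted p = 0.53) were not called.

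Of the 91 related genes 20 fell and 5 rose with SFRP5, so that 27.5% were called, against 31.3% of all genes (15.7% lower and 15.6% higher). Their median log2 change was −0.03. Cryab fell by 0.56, to 19.87 CPM with IL-1β and SFRP5 against 29.33 CPM with IL-1β alone, and Hspb6, another small heat shock protein, rose by 0.91, to 10.38 CPM with IL-1β and SFRP5 against 5.542 CPM with IL-1β alone. Ptges3, the p23 cochaperone, fell by 0.36 and Cdc37, which brings kinases to HSP90, by 0.25. Of 18 actin, tubulin and tubulin cofactor genes 5 fell, among them Tubb2a by 0.58, and Tubb5 rose by 0.23.

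Cells given both IL-1β and SFRP5 still differed from control cells. Of 33 members 17 were higher, 10 lower and 6 not called, where 37.3% of all genes were higher and 39% lower, 76.3% in all. At 1.5-fold or more 8 members were higher and 4 lower, against 25% and 27.2% of all genes and 52.1% in either direction. Libraries did not overlap for 28 members, 18 higher and 10 lower, against 78.2% of all genes, with 38.2% higher and 40% lower. This comparison shares its libraries with the other comparisons and is not independent of them. Hspa1a remained 54.7-fold and Hspa1b 35.9-fold above control cells, Hsp90aa1 2.84-fold, Dnajb1 2.40-fold and Tcp1 2.06-fold. Hspa8, Cct2 and Pfdn5 were within 0.01 of control on the log2 scale and were not called (adjusted p of 0.826, 0.802 and 0.931), although all 3 were called lower with upper-quartile factors, at −0.14, −0.12 and −0.14, and with library size alone, at −0.18, −0.15 and −0.17. Members called below control cells included Cct3 (1.24-fold), Hsph1 (1.11-fold) and Chordc1 (1.25-fold), with Hspb1 (3.41-fold), Hspe1 (1.65-fold), Bag3 (1.64-fold), Hspd1 (1.53-fold) and Hspb8 (1.43-fold) further below. The Hsph1 call was lost without SFRP5 library 2 (adjusted p = 0.0701).

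The 5 members with a 3-unit heat shock element in a promoter moved in both directions with IL-1β. Their log2 changes were all negative when SFRP5 was added. Of all 33 members 22 were called lower in that comparison, and the median log2 change of the 33 was −0.22. With IL-1β, Dnajb6 rose by 1.23 and Hsph1 by 0.23 on the log2 scale (−0.02 when scaled by library size alone), Chordc1 was at −0.10 and not called, and Hspd1 and Hspe1 fell by 0.38 and 0.65. With SFRP5 added to IL-1β, Dnajb6 fell by 0.34, Hsph1 by 0.37, Chordc1 by 0.22 and Hspd1 by 0.23, and Hspe1 was at −0.08 and not called. That Hspe1 change ranged from −0.12 to 0.01 over the other settings tried. Hspd1 and Hspe1 share the same match, and members without a promoter entry, such as Hsp90aa1, could not be searched. Whether the element has a part in these changes was not tested.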

How the data were processed

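The values are whole-number gene counts, unscaled, as the authors deposited them in 1 table. Per the labels' protocols, reads were trimmed with fastp, aligned to mouse mm10 with STAR and quantified with RSEM, with no versions given; the rounding and the annotation release are not given in the sources used here. Each column was tied to 1 sample title by its first letter, taken as the treatment, and its last digit, taken as the number. The table's positions were not used as coordinates. Its gene length column, as deposited, was used only for levels per kilobase.

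Genes were tested with edgeR 4.0.16 (limma 3.58.1, DESeq2 1.42.0, R 4.3.3) by the quasi-likelihood test after filterByExpr, with TMM factors and 1 fit over 9 libraries in 3 groups. P-values were adjusted over 15502 genes by the Benjamini-Hochberg method. The SE is the log2 change divided by the root of its F statistic. The test was tried on simulated counts with known changes. CPM carry the TMM factors. Total counts were 15795985 to 20688963 per library, and counting error only is covered where counts are quoted.

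The members and lists were chosen with earlier results of these data known. In each role the largest called rise and fall with IL-1β, and the 6 largest changes with SFRP5, are given by library. No pair of replicates agreed within sampling noise (chi-square per gene of 2.19 to 4.65). Promoters were searched for heat shock elements in RefSeq sequences of GRCm38.p6, and transcripts of GENCODE M21 were compared in windows of 150 bases. Other scalings, filters, tools and libraries left out were tried.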

Additional observations from a re-analysis of the deposited data

How the results depend on the processing

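Over 1881 recomputed values (33 genes, 3 comparisons, 19 alternatives), 1741 kept direction and side of the threshold, 64 lost their call, 33 gained one and 43 changed sign, 36 of these with no call before or after. Other scalings gave 20 of the sign changes, a library left out 15 and another filter, tool or sample set 8. With library size alone, Hsf1 (−0.15), Hsph1 (−0.02), Dnaja1 (−0.15) and Pfdn2 (−0.06) changed sign for IL-1β against control, Stip1 (0.03), Ahsa1 (0.02), Pfdn4 (0.02) and Hspe1 (0.00) for IL-1β with SFRP5 against IL-1β, and Hspa4 (−0.09), Cct2 (−0.15), Cct7 (−0.01) and Pfdn2 (−0.07) for IL-1β with SFRP5 against control. With upper-quartile factors, Hsf1 (−0.05) and Dnaja1 (−0.05) did so for IL-1β against control, and Hspa4 (−0.06), Cct2 (−0.12) and Pfdn2 (−0.04) for IL-1β with SFRP5 against control. Cct3, at −0.01 for IL-1β against control, was at 0.01 with RLE factors, no low-count filter or DESeq2. For IL-1β with SFRP5 against control, Pfdn5 was at 0.01 with RLE factors, DESeq2 or only the 6 libraries compared and 0.02 with no filter, and Hspa8 was at 0.01 with no filter and 0.00 with the other 3. Over libraries left out, Hspb1 ranged from −0.66 to 0.16 and Hspe1 from −0.12 to 0.01 for IL-1β with SFRP5 against IL-1β, Cct3 from −0.02 to 0.03 for IL-1β against control, and Hspa8 from −0.03 to 0.06 and Pfdn5 from −0.02 to 0.04 for IL-1β with SFRP5 against control. Library size alone left 1567 genes called lower with SFRP5 against IL-1β, against 2438 with TMM factors. Testing against a 1.2-fold change (edgeR's glmTreat) left 809 genes higher and 765 lower with SFRP5 against IL-1β, and 0 members higher and 4 lower, against 2 and 22 at no minimum change. For IL-1β against control it left 18 members higher and 4 lower, and 4977 genes higher and 5290 lower. For IL-1β with SFRP5 against control it left 13 members higher and 6 lower, and 4725 genes higher and 4949 lower. Leaving out 1 library at a time gave 0 to 2 members higher with SFRP5 against IL-1β. The labels do not say whether replicate numbers pair libraries. Correlations of deviations were −0.036 to 0.04 for the same number and −0.039 to 0.055 for different numbers, which cannot show whether libraries were paired. With a replicate block 2 members rose and 22 fell with SFRP5 against IL-1β, with no member's call changed in any comparison. Without the low-count filter the prior degrees of freedom were infinite, so the spread of each gene was taken from the trend alone, against a median of 18.1 with the filter. Depth limits the genes near 5 CPM, such as Hspb1, more than the others.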
